A study of Mus musculus with 32 samples.

Results

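The autosomal GATA factors and their FOG cofactors were followed in the RNA-seq of wild-type (WT) and Eed-/- mouse embryonic stem cells (mESCs). The members were the gene symbols Gata2, Gata3, Gata4, Gata5, Gata6, Zfpm1 and Zfpm2, which makes 7 of the 24028 symbols listed. They were chosen by name, and all 7 were found in both libraries. GATA factors are zinc finger transcription factors that bind the DNA letters GATA and set up cell lineages. Gata2 and Gata3 belong to the subfamily known from blood, trophoblast, inner ear and T cells, while Gata4, Gata5 and Gata6 belong to that known from heart, gut and the primitive endoderm, the extra-embryonic layer that mESCs can turn into when Gata4 or Gata6 is forced on. Zfpm1 (FOG1) and Zfpm2 (FOG2) encode friend-of-GATA proteins, which do not bind DNA by themselves but dock on a GATA zinc finger and bring in the NuRD and CtBP corepressors. Outside pluripotent cells these genes drive differentiation, and in mESCs many of them are known Polycomb targets.

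The study asked how Polycomb and DNA methylation act at large unmethylated regions around developmental genes, named DNA methylation valleys (DMVs). EED is the subunit of Polycomb repressive complex 2 (PRC2) that binds methylated H3K27 and is needed for the activity of the complex. The WT and Eed-/- cells carried no other allele or agent in the labels, were both labelled as the TT2 line, and were grown in serum with LIF on gelatin, with no feeder cells named. For other assays of the series the Eed-/- cells were labelled as a different line. Each genotype had 1 library, so there is no replicate check and no test between genotypes, and every comparison is one between these 2 libraries. In the authors' list of DMV genes of mESCs, Gata2, Gata3, Gata4, Gata6 and Zfpm1 appear, and Gata5 and Zfpm2 do not.

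Eed itself, the targeted gene (mm9 chromosome 7, from 97103166 to 97129493), was listed with an FPKM (fragments scaled to transcript length and library size) of 63.0 in WT, against 70.9 in the library labelled Eed-/-. Its transcript was thus not lower where the label names a loss, so that the RNA does not check the label. The study describes a check of the loss of Eed by western blot and ChIP-seq for methylated H3K27, neither of which was analysed here. Directions below are given for the library labelled Eed-/-. Low FPKM values fall on steps of 1 fragment, and these steps gave a depth of 7240000 fragments for WT and 6460000 for the library labelled Eed-/-, where 79.3% and 79.7% of the low values of genes with 1 transcript were near a whole number (by at most 0.1). Pou5f1, Sox2 and Nanog, which define pluripotent cells, stood at 393, 196 and 114 FPKM in WT and at 373, 157 and 176 in the library labelled Eed-/-.

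Promoters of many DMV genes are rich in CpG, the dinucleotide that carries DNA methylation in mammals, and 3 member promoters are shown for that reason. Each sequence is the 250 bases before a RefSeq start on GRCm38.p6, read 5′ to 3′ on the gene's strand, with every CpG in capitals. A promoter was held for 4 of the 7 members, namely Gata2 (with 2 starts), Gata3, Gata5 and Zfpm1, while Gata4, Gata6 and Zfpm2 had none in the table used here. The windows are chr6:88193641-88193890 on the plus strand for Gata2, chr2:9878601-9878850 on the minus strand for Gata3 and chr8:122281891-122282140 on the plus strand for Zfpm1.
Gata2: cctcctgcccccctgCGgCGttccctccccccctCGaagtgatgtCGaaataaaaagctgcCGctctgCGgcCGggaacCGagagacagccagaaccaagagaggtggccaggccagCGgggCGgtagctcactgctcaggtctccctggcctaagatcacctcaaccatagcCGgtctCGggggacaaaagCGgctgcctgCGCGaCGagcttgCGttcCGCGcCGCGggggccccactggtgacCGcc
Gata3: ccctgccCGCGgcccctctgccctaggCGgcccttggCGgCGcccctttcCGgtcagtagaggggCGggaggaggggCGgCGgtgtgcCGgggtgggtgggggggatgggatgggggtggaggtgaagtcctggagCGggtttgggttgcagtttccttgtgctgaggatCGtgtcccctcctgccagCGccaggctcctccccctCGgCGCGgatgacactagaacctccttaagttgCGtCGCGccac
Zfpm1: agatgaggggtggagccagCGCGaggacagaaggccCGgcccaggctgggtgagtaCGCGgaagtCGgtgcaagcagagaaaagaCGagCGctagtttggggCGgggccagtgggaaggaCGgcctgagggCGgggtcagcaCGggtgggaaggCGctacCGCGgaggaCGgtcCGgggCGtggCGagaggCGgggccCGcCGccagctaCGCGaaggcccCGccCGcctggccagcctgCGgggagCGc
These windows hold 22, 19 and 28 CpGs, against a median of 6 over the 32851 promoters of the table. As many CpGs or more were found in 14.8% of all promoters for Gata2, 19.7% for Gata3 and 7.61% for Zfpm1. The second Gata2 start had 24 CpGs in its window. Gata5, which is not in the authors' list of DMV genes, had 22, so the count does not set the listed members apart. The motif of the GATA factors themselves, searched as NGATAN with A or T as the first letter and A or G as the last, on both strands of the 300 bases from 250 before to 50 after the start, was matched once in the Gata3 window and in none of the other 4 member windows, against a match in 29.8% of all promoters. A match describes letters only and is not a binding site.

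All 7 members were low in both libraries, under 2 FPKM in each (see the plot of FPKM by library). They are described in the order of their subfamilies, first by the level per transcript length and then by the fragments behind it. In bulk RNA, fewer cells with a transcript and less RNA per cell cannot be told apart. The intervals are exact 95% ones that cover counting error only, Poisson for a level and Clopper-Pearson for the ratio of the libraries at equal depth.

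**Figure D1:**
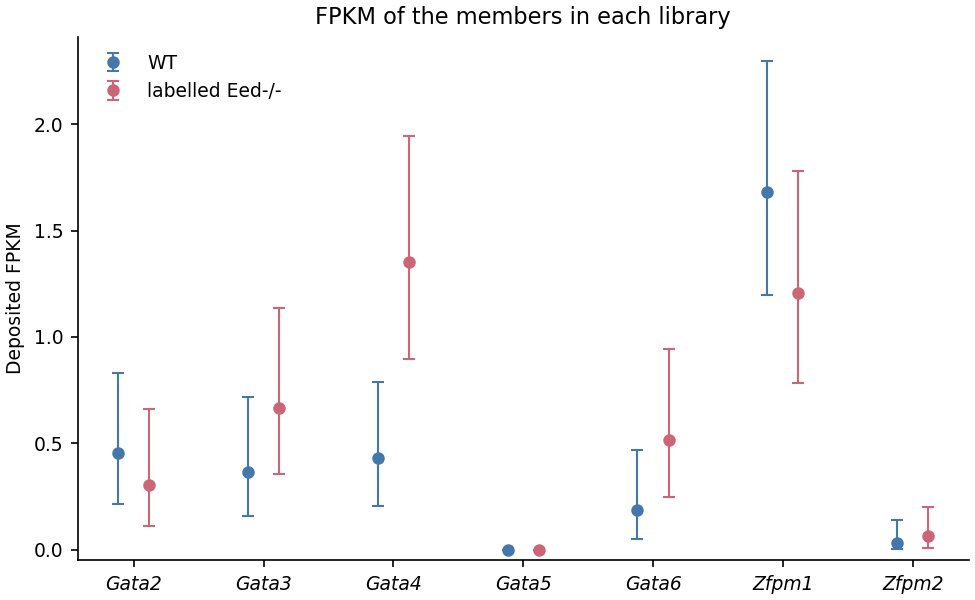
Deposited FPKM (y axis) of the 7 members (x axis) in WT (blue) and in the library labelled Eed-/- (red), each point being 1 library. Bars are exact 95% Poisson intervals of the fragment number, which cover counting error only. Gata4 is the member whose intervals do not overlap, at 0.431 and 1.35 FPKM, and Gata5 was listed at 0 in both libraries, with no interval.

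Of the heart and endoderm subfamily, Gata4 showed the largest difference. Gata4 lies on chromosome 14 of mm9 from 63817759 to 63890529 on the minus strand, and its longest annotated transcript has 7 exons and 3400 bp. Its level was 0.431 FPKM in WT (0.206 to 0.789), against 1.35 FPKM in the library labelled Eed-/- (0.894 to 1.95). This stands for about 10 and 28 fragments. The ratio of the library labelled Eed-/- over WT was 3.14, with an interval of 1.48 to 7.24 that leaves out 1. Gata4 encodes a factor needed for heart and endoderm formation.

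Gata6, which is placed at the head of primitive endoderm formation, lies on chromosome 18 from 11052508 to 11085633 on the plus strand and has a single annotated transcript of 3194 bp. Its level was 0.184 FPKM in WT (0.0499 to 0.469), against 0.514 FPKM in the library labelled Eed-/- (0.246 to 0.945). About 4 and 10 fragments were behind these values. The ratio was 2.80, close to that of Gata4, but its interval of 0.808 to 12.2 holds 1, so that a difference was not detectable at this depth. Gata5, a factor of heart and gut on chromosome 2 from 180059838 to 180069404 on the minus strand, was listed at 0 in both libraries. A listed 0 need not mean an absent transcript in these tables, as 1 of 77 ribosomal protein symbols was listed at 0 in WT, against 2 in the library labelled Eed-/-. Gata4 and Gata6 together went from 14 fragments in WT to 38 in the library labelled Eed-/-.

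The blood and trophoblast subfamily gave differences in opposite directions, both within counting error. Gata3, a regulator of T cells and trophoblast on chromosome 2 from 9778705 to 9811661 on the minus strand, was at 0.365 FPKM in WT (0.157 to 0.717), against 0.664 FPKM in the library labelled Eed-/- (0.353 to 1.13). With about 8 and 13 fragments its ratio was 1.82 (0.700 to 5.07). Gata2, a regulator of blood stem cells on chromosome 6 from 88143885 to 88157024 on the plus strand, was at 0.452 FPKM in WT (0.216 to 0.830), against 0.304 FPKM in the library labelled Eed-/- (0.111 to 0.660). With about 10 and 6 fragments its ratio was 0.672 (0.201 to 2.04). Taken as a pair, these genes had 18 fragments in WT, against 19 in the library labelled Eed-/-.

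The FOG cofactors differed in level from each other more than between libraries. Zfpm1, on chromosome 8 from 124806039 to 124861146 on the plus strand, was at 1.68 FPKM in WT (1.19 to 2.30), against 1.21 FPKM in the library labelled Eed-/- (0.781 to 1.78). About 39 and 25 fragments gave a ratio of 0.718 (0.417 to 1.22). Zfpm2, whose gene spans 449551 bp on chromosome 15 from 40486588 to 40936138 on the plus strand, was at 0.0289 FPKM in WT, against 0.0647 FPKM in the library labelled Eed-/-, or about 1 and 2 fragments. Its ratio of 2.24 has an interval of 0.117 to 132, so that these counts say nothing of a direction.

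**Figure D2:**
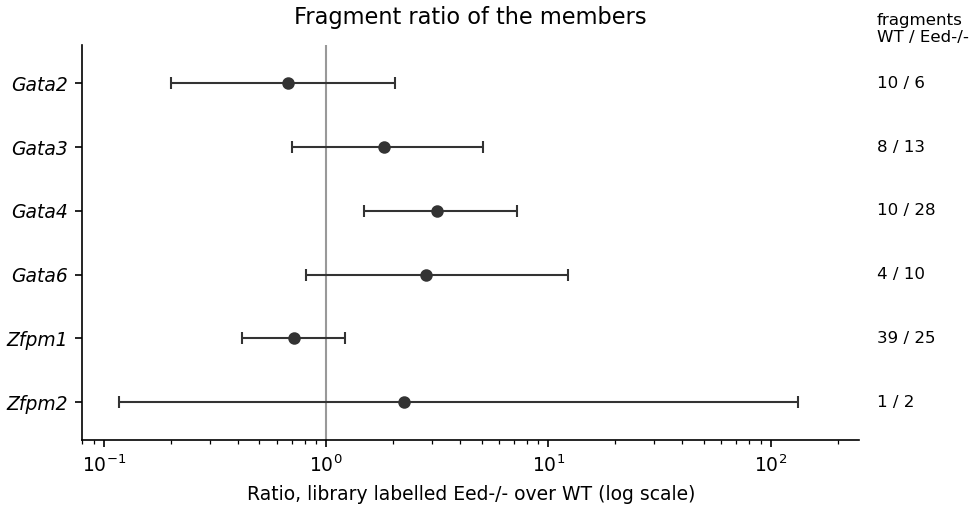
Ratio of fragments, scaled to equal depth, in the library labelled Eed-/- over WT (x axis, log scale) for the 6 members with fragments, each point being 1 pair of libraries, with exact 95% Clopper-Pearson intervals for counting error and the fragment numbers at the right. The interval of Gata4, 1.48 to 7.24, lies above the line at 1, and those of the other 5 members cross it.

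Of the 12 values above 0, 10 differed by at most 0.1 from a whole fragment number for the longest annotated transcript. The exceptions were those of Zfpm2, at 1.17 and 2.34. The interval lay above 1 for 1 of 6 members, below 1 for 0 and held 1 for 5. Among the 4462 genes matched to the annotation with a mean normalized FPKM of 0.1 or more and 3 to 64 fragments in all, the span of the members, the interval lay above 1 in 13.3% and below 1 in 13.3%, so the share among the members is near this background. Gata4 and Gata3 have several annotated transcripts, and on the length of the shortest coding one the numbers of Gata4 would be 1 and 4, with a ratio interval of 0.444 to 221 that holds 1. These 2 numbers are rounded and were not checked for nearness to a whole number. On the longest transcript Gata4 lay at 10.04 and 28.09 before rounding.

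Within a library, Zfpm1 was the highest member in WT, and its interval did not overlap that of the next, Gata2. Below it, in falling order, came Gata2, Gata4, Gata3, Gata6 and Zfpm2, and none of these neighbours differed beyond counting error. In the library labelled Eed-/- the order was Gata4, Zfpm1, Gata3, Gata6, Gata2 and Zfpm2, and no neighbours differed beyond counting error. Gata4 thus stood at place 3 in WT and at place 1 in the library labelled Eed-/-. The GATA members summed to 1.43 FPKM in WT, against 2.83 FPKM in the library labelled Eed-/-, or 32 and 57 fragments, while the FOG members summed to 1.71 and 1.27 FPKM, or 40 and 27 fragments. Much of the difference in the GATA sum was that of Gata4, at 0.431 and 1.35 FPKM, or about 10 and 28 fragments. Gata2 and Gata3 together made up 0.816 and 0.967 FPKM.

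To set the members against all genes, the libraries were quantile-normalized and the change was the difference in log2(normalized FPKM + 1), the library labelled Eed-/- minus WT, and genes were used where the mean normalized FPKM reached 0.1. This left 5 of the 7 members, since Gata5 and Zfpm2 were below the limit. On this scale the change was 0.73 for Gata4, 0.36 for Gata6, 0.30 for Gata3, -0.15 for Gata2 and -0.24 for Zfpm1. Of these 5 members, 0 were at least 2-fold higher and 0 at least 2-fold lower. Of 14835 genes used, 564 or 3.80% were at least 2-fold higher and 590 or 3.98% at least 2-fold lower. The median change was 0.30 over the 5 members and 0.0090 over all genes used. A sum with 1 shrinks the change of low genes, and at their mean level Gata2 and Gata6 could reach at most 0.81 and 0.78, short of the 2-fold limit of 1. With 0.1 in place of 1, Gata4 at 1.48 and Gata6 at 1.12 passed 2-fold, as 2 of 5 members, while 11.4% of all genes were then higher and 12.0% lower.

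**Figure D3:**
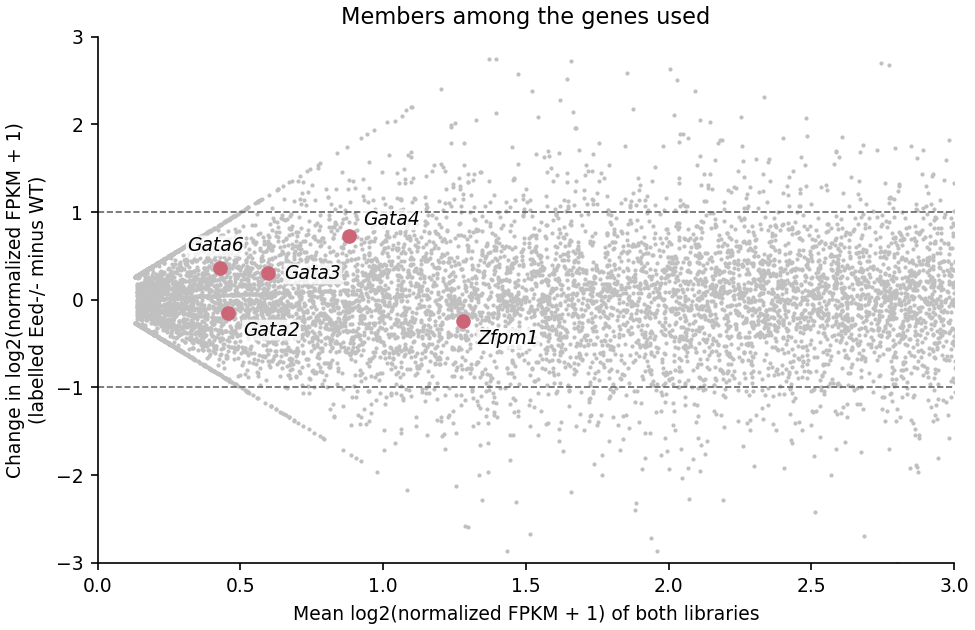
Change in log2(normalized FPKM + 1), the library labelled Eed-/- minus WT (y axis), against the mean of both libraries (x axis), with 1 grey point per gene, members in red and dashed lines at a 2-fold change. The 5 members lie between -0.24 and 0.73, inside the dashed lines, and 5961 of the 14835 genes lie outside the axes.

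Each member was also set beside its chromosome, since chromosomes differed as a whole between the libraries. The genes of chromosome 8, which holds Zfpm1, had a median change of -0.39, and 79.0% of its 753 genes used were lower in the library labelled Eed-/-. The change of Zfpm1 was -0.24, with a counting interval of -0.67 to 0.21 that holds that median. This interval also holds the median of all genes used, 0.0090, so it does not tell these medians apart. Adding 1 shrinks the change of a gene this low, and with 0.1 in its place Zfpm1 was at -0.39. The chromosome median was not read at that setting, so the 2 sizes cannot be ranked. The chromosomes of the other members had medians close to 0, which were -0.070 on chromosome 14 for Gata4, 0.10 on chromosome 18 for Gata6, 0.074 on chromosome 2 for Gata3 and Gata5, 0.013 on chromosome 6 for Gata2 and 0.012 on chromosome 15 for Zfpm2. The part of the chromosome in a member's change was not tested.

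The nearest protein-coding gene with a listed value was read on either side of each member, which gave 14 neighbours. Of these, 11 passed the limit on low values, with a median change of 0.37 and a range from -1.15 to 1.17, and 2 passed 2-fold. Over all genes used the median was 0.0090, with 3.80% at least 2-fold higher and 3.98% lower. No test of the neighbours as a set was made. Neil2, a DNA glycosylase gene 5.38 kb to the left of Gata4, fell from 2.71 FPKM in WT to 0.625 FPKM in the library labelled Eed-/-, a change of -1.15, opposite in sign to Gata4. On the other side of Gata4, Blk, a B cell kinase gene 101 kb away, was listed at 0 in both. Slco4a1, an organic anion transporter gene 122 kb to the right of Gata5, rose from 1.19 to 3.73 FPKM, a change of 1.17, and Cables2, 51.6 kb to the left, was at 2.45 and 3.59 FPKM, a level that is uncertain since the gene has 1 near-identical copy in the genome. Both neighbours of Gata6 stood above it in level, Mib1 (234 kb away) at 10.9 FPKM in WT, against 12.9 in the library labelled Eed-/-, and Rbbp8 (706 kb away) at 8.29 and 10.6. Next to Gata3, Celf2 lies 2776 kb away and was at 0.334 and 0.852 FPKM, and Taf3, a TFIID subunit gene 24.5 kb away, was at 5.12 and 4.56. Next to Gata2, Rpn1 (88.6 kb away) was at 65.5 and 55.2 FPKM and Dnajb8 (15.2 kb away) was listed at 0. Next to Zfpm1, Banp (253 kb away) was at 5.67 and 4.93 FPKM and Trhr2 (19.7 kb away) was listed at 0. Next to Zfpm2, Lrp12 (711 kb away) was at 2.00 and 1.96 FPKM and Oxr1 (343 kb away) at 11.1 and 16.8. Other annotated genes overlap Gata3, Gata5, Gata6 and Zfpm1. The libraries kept the strand but its use in counting is not given in the sources used here, so that fragments of these members and of overlapping genes may be mixed. The antisense non-coding gene across Gata6, 1010001N08Rik, was at 0.278 FPKM in WT and listed at 0 in the library labelled Eed-/-. Across Gata3, 9230102O04Rik on the same strand was at 0.246 FPKM in WT and 4930412O13Rik on the opposite strand at 0.0359 FPKM. Both were listed at 0 in the library labelled Eed-/-.

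The genes that act with or below the GATA factors were read from lists, each given by how many of its genes passed 2-fold beside the 3.80% and 3.98% of all genes. Of the primitive endoderm regulators, genes that accompany Gata4 and Gata6 in that lineage, all 7 were under 2 FPKM in both libraries, and of the 5 used 0 were 2-fold higher and 0 lower, with a median of 0.36. Adding 1 to levels this low hides their folds, and with 0.1 in its place 3 were higher and 1 lower, with a median of 1.10. Of all genes used, 11.4% were then higher and 12.0% lower. By fragments, the ratio interval lay above 1 for the SOX factor gene Sox7 on about 7 and 23 fragments (1.53 to 10.2), for the receptor gene Pdgfra on about 9 and 22 (1.21 to 6.76) and for Sox17, which was listed at 0 in WT and had about 9 fragments in the library labelled Eed-/-. It lay below 1 for Hnf4a, a factor of visceral endoderm and liver, on about 16 and 1 fragments (0.00167 to 0.451). Among the 4462 genes with 3 to 64 fragments in all, it lay above 1 in 13.3% and below 1 in 13.3%. Dab2, also used, was at 0.499 FPKM in WT, against 0.515 in the library labelled Eed-/-. Of the primitive endoderm products, 4 of the 11 genes used were 2-fold higher, 0 lower, and the median was 0.45. The largest rises were those of basement membrane genes, Lama1 (laminin α chain) from 8.25 to 33.5 FPKM, a change of 2.06, and Col4a1 (type IV collagen) from 5.62 to 19.1 FPKM, a change of 1.76. The genes of the list with the highest levels in WT did not rise in FPKM. Lamb1 went from 29.6 to 24.8 FPKM, with a ratio interval of 0.766 to 0.913. Lamc1 was at 62.1 and 61.2 FPKM and Sparc at 71.9 and 67.9 FPKM. After normalization the change was above 0 for 9 of the 11 genes used, and below it for Lamb1 and Plat. Afp and Ttr, which define the later endoderm, were listed at 0 in both libraries. The whole list summed to 195 FPKM in WT, against 243 in the library labelled Eed-/-.

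The heart genes were mostly low, with 9 of 11 regulators and 8 of 10 products under 2 FPKM in WT. Of the 8 cardiac regulators used, 0 passed 2-fold in either direction and the median was 0.12, with a sum over all 11 of 18.7 FPKM in WT, against 12.9 in the library labelled Eed-/-. That sum turns on Srf, a factor expressed in many cell types, at 13.7 and 7.68 FPKM, and the others summed to 4.95 and 5.25. With 0.1 added in place of 1, 2 of the cardiac regulators were higher and 1 lower, beside 11.4% and 12.0% of all genes used. Of the 7 cardiac products used, 1 was 2-fold higher and 0 lower, 3 had a change above 0, and the median was -0.17. The 2-fold higher gene was Myl7 (atrial myosin light chain), from 1.33 to 3.76 FPKM on about 4 and 10 fragments. Its ratio interval of 0.808 to 12.2 holds 1. The myosin gene Myh6 went down from 2.56 to 0.903 FPKM, a change of -0.86, on about 110 and 34 fragments (0.229 to 0.513). Ryr2 went up from 0.417 to 0.625 FPKM on about 50 and 67 fragments (1.03 to 2.21). Myl2, Actc1 and Tnnt2 were listed at 0 in both. Of the 12 haematopoietic partners of the GATA factors used, 0 passed 2-fold and the median was 0.16, and 14 of 16 were under 2 FPKM in each library. With 0.1 added in place of 1, 2 were higher and 1 lower, beside the same 11.4% and 12.0%, with a median of 0.67. Tal1, a partner of GATA factors in blood, was at 0.137 FPKM in WT, against 0.730 in the library labelled Eed-/-, on about 4 and 19 fragments with a ratio interval of 1.77 to 21.5. Ldb1, the highest gene of the list, went down from 49.7 to 28.3 FPKM on about 761 and 387 fragments (0.503 to 0.645). The change was above 0 for 7 of the 12 genes used. The list summed to 59.6 FPKM in WT, against 41.9 in the library labelled Eed-/-, or 9.86 and 13.5 without Ldb1.

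Among the trophoblast genes, where Gata2 and Gata3 act, 1 of the 12 used was 2-fold higher and 2 were lower, with a median of -0.43. Their sum was 75.6 FPKM in WT, against 35.0 in the library labelled Eed-/-, or 35.9 and 25.8 without Tfap2c. Tfap2c, an AP-2 factor also used by germ cells, fell from 39.8 to 9.21 FPKM, a change of -1.85, and the keratin gene Krt18 fell from 12.1 to 4.69 FPKM, a change of -1.06. Eomes, a T-box gene of trophoblast and mesendoderm, rose from 0.478 to 1.93 FPKM, a change of 1.03. On the FPKM as deposited Eomes was at 0.99 and short of 2-fold, which leaves 0 trophoblast genes and 2 mesendoderm markers higher. Of the 15 trophoblast genes, 9 were under 2 FPKM in WT, against 10 in the library labelled Eed-/-. With 0.1 added in place of 1, 3 trophoblast genes were higher and 5 lower, with a median of -0.79. Of all genes used, 11.4% were then higher and 12.0% lower. Of the 7 mesendoderm markers used, 3 were 2-fold higher and 0 lower, with a median of 0.54. Beside Eomes, which that list shares, they were Kdr (a VEGF receptor) from 0.158 to 1.59 FPKM, a change of 1.18, and Gsc (goosecoid) from 0.415 to 1.87 FPKM, a change of 1.06. Kdr rested on about 7 and 59 fragments and Gsc on about 3 and 13. The change was above 0 for 5 of the 7 genes used. Mesp1 went down from 0.766 to 0.172 FPKM and Mixl1 from 0.590 to 0.367 FPKM, both with ratio intervals that hold 1. Lhx1 and Cer1 were listed at 0 in both libraries. The list stayed low in both libraries, with all 10 genes under 2 FPKM. With 0.1 added in place of 1, 4 mesendoderm markers were higher and 1 lower, with a median of 1.89.

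**Figure D4:**
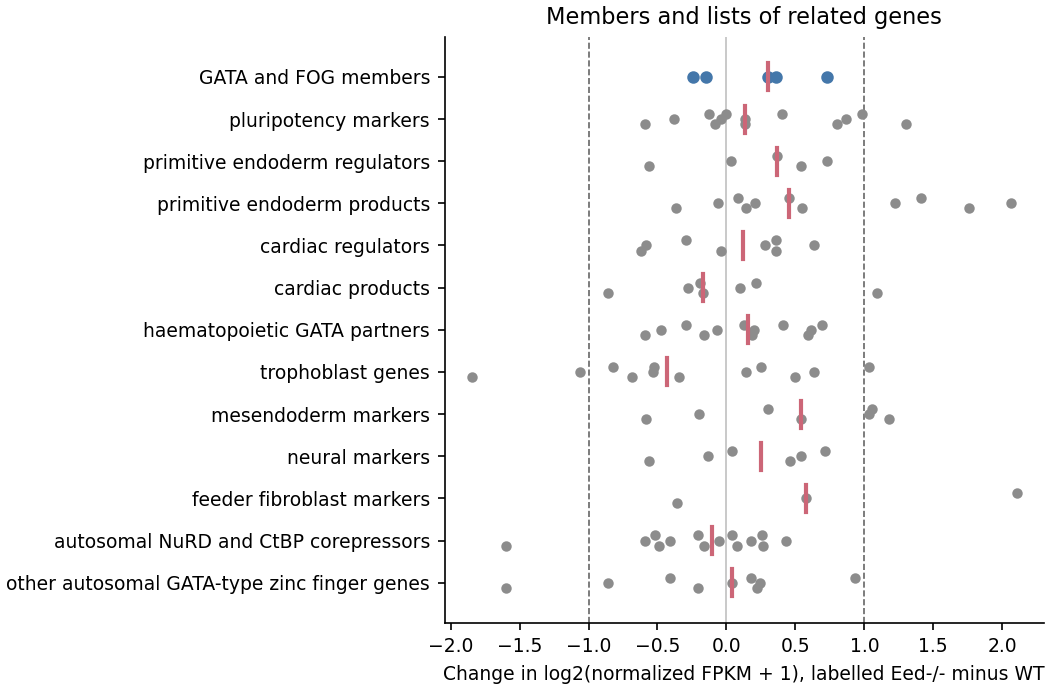
Change in log2(normalized FPKM + 1), the library labelled Eed-/- minus WT (x axis), of the 5 members used (blue) and of the genes used of each list (grey, 1 point per gene), with the median of each row as a red bar and dashed lines at a 2-fold change. The median lies at 0.30 for the members, 0.45 for the primitive endoderm products and -0.43 for the trophoblast genes.

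The markers of other cell types that a culture could hold moved as follows. Of the 13 pluripotency markers, 1 was 2-fold higher and 0 lower, with a median of 0.13. It was Zfp42 (REX1), which went from 131 to 272 FPKM and has 1 near-identical copy in the genome, so that its level is uncertain. Of the 6 neural markers used, 0 passed 2-fold, the median was 0.25, and the sum of the list was 107 FPKM in WT, against 89.4 in the library labelled Eed-/-. Tubb3, a tubulin gene, carried that difference at 95.4 and 74.0 FPKM, and the other genes of the list summed to 11.2 and 15.4. Of the 3 fibroblast markers used of 10, 1 was 2-fold higher. It was Thy1, which rose from 0.976 to 6.97 FPKM, a change of 2.10. The summed level of the fibroblast list was 1.73 FPKM in WT, against 7.70 in the library labelled Eed-/-, or 0.750 and 0.733 without Thy1, while Dcn, Fap and Twist2 were listed at 0 in both and Col1a1 was at 0.460 and 0.137 FPKM. The part of any of these cell types in the level of Gata4 or of another member was not tested.

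The corepressors that FOG proteins bring in were, unlike the members, well expressed. All 14 autosomal NuRD and CtBP genes were above 2 FPKM in both libraries, summing to 636 FPKM in WT, against 488 in the library labelled Eed-/-. Their median change was -0.11. Of these, 0 were 2-fold higher and 1 was lower. This was Mta1, a NuRD subunit that itself holds a GATA-type zinc finger, which fell from 13.8 to 3.52 FPKM, a change of -1.59. The 9 other autosomal genes with GATA-type zinc fingers, Mta1 among them, had a median change of 0.040, with 0 that were 2-fold higher and 1, again Mta1, lower.

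The genes whose pattern was most like that of Gata4, by Euclidean distance of log2(normalized FPKM + 1) over the 2 libraries, were Lyn at 0.431 and 1.37 FPKM, Col11a1 at 0.449 and 1.35 FPKM and Abcb1a at 0.433 and 1.32 FPKM. Lyn encodes a Src-family kinase, Col11a1 a cartilage collagen and Abcb1a a drug efflux pump. Their distances were 0.0134, 0.0161 and 0.0163. With only 2 libraries, a likeness of this kind says that the levels were alike and no more.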

How the data were processed

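RNA levels of WT and Eed-/- mESCs were taken from 1 RNA-seq library each. The authors made strand-specific libraries from ribosomal RNA-depleted total RNA and mapped them to mm9, and the submitters' processing notes name TopHat2 2.0.11, Bowtie2 2.2.2 and Cufflinks 2.2.1. Each deposited value is the FPKM of a gene symbol. The annotation is not given in the sources used here. The study quantile-normalized and log-transformed these FPKM for display, and the deposited values are from before that step.

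Repeated entries of 268 symbols were added up, the libraries were quantile-normalized, and a change is a difference in log2(FPKM + 1), which understates changes of low genes. Of 24028 symbols, 21892 were matched to GENCODE vM1 on NCBIM37 (mm9). Fragment numbers rest on the recovered depth and the longest transcript less 180 bp, and the depth was read from 5404 genes with 1 transcript of at least 1000 bp. PCR duplicates are not independent molecules, so intervals cover counting error only. A near-identical copy covers 80% of a transcript at 95% identity (minimap2 2.31), and no member had one. Promoters are from RefSeq.

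The members and lists were chosen with earlier results of these data known. Genes named were the members, Eed, Pou5f1, Sox2, Nanog, up to 2 rises and 2 falls past 2-fold per list, the flanking genes and the 3 genes most like the member with the largest change. Other genes named as listed at 0 or for their place in a list were chosen after their values were seen. With 1 library per genotype no test was made. Scripts were tested on simulated data. Tried in turn were unnormalized FPKM, scaling to the median ratio of genes at a mean FPKM of 2 or more, pseudocounts of 0.1 and 0.01, other filters, repeated symbols left out, a 3-fold limit and other transcript lengths. The software was scipy 1.17.1, numpy 2.4.6 and pandas 2.3.3 under Python 3.11.15, with figures by matplotlib 3.10.9.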

Additional observations from a re-analysis of the deposited data

How the results depend on the processing

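The number of members at least 2-fold higher, 0 at a pseudocount of 1, was 2 at pseudocounts of 0.1 and 0.01, and their median change was then 0.76 and 0.90. The number of members lower was 0 under all alternatives, which says little for genes this low. Of all genes, 1694 were higher and 1778 lower at a pseudocount of 0.1, 1914 and 1989 at 0.01, and 152 and 137 at a 3-fold limit. The median change of all genes was -0.091 for the FPKM as deposited, a shift of -0.10, 0.022 with median-ratio scaling, 0.016 at pseudocounts of 0.1 and of 0.01, and 0 with no filter. Relative to that median, Gata4 was at 0.72 after quantile normalization, 0.81 as deposited and 0.76 with median-ratio scaling, and no used member changed sign. With a mean FPKM of at least 1, Zfpm1 alone was left, at -0.24. On the shortest coding transcript, Gata3 had 1 fragment in WT against 2 in the library labelled Eed-/-, and Gata4 had 1 and 4. Of the 504 other values of lists and named genes under the alternatives, 441 stayed within their intervals or on their side of 2-fold, 63 moved and 0 changed sign after passing 2-fold. Depth limits most members, which rest on 39 fragments or fewer per library. No paired analysis was possible because each genotype has 1 library.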
